A study of Rattus norvegicus with 6 samples.

Results

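Prostaglandins are lipid signals made from arachidonic acid. Phospholipase A2 releases the acid from membranes, the cyclooxygenases turn it into an unstable intermediate, and terminal synthases turn that into prostaglandin E2, prostacyclin or prostaglandin D2. Dehydrogenases and reductases then inactivate the products. In the intervertebral disc, prostaglandin E2 is best known as a mediator of inflammation and pain. The 10 enzyme genes named for this account were Pla2g4a, Ptgs1, Ptgs2, Ptges, Ptges2, Ptges3, Ptgis, Ptgds, Hpgd and Ptgr1. They were chosen by symbol, and 8 of them were found among the 17273 genes of the deposited table. Ptgis, the prostacyclin synthase, and Ptgds, a prostaglandin D2 synthase, were not analysed here.

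RNA was sequenced from cultured nucleus pulposus cells, the cells of the core of the disc, of wild-type male Sprague Dawley rats. The lactate group was 3 libraries of cells given 10 mM lactate for 8 h, and the control group was 3 libraries of untreated cells. All cells were grown in DMEM with serum and antibiotics. The labels give no age, do not name the form of lactate used, and do not say whether libraries came from separate cultures, so p-values cover only the spread between these libraries.

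Lactate libraries held 30291357 to 35512356 counts and control libraries 33584741 to 38989574. Levels are given as CPM, counts scaled to a common library size with TMM factors, which bring the bulk of genes to a common level. TMM factors were 0.702 to 0.806 in lactate and 1.33 to 1.36 in control libraries, so directions depend strongly on whether they are used. With library totals alone the median log2 fold change of all 13747 genes tested was −0.96, against −0.10 with TMM factors, a shift of the whole scale. Values with library totals are given beside many of the results it turns. Nucleus pulposus markers (14 genes) summed to 3640 to 4079 CPM in lactate and 2954 to 3236 CPM in control libraries. The sums were taken with TMM factors only. Of the 12 tested 4 were higher, 3 lower and 5 not called, where 31.4% of all genes tested were higher and 34.6% lower. With library totals 2 were higher, 7 lower and 3 not called, where 12.5% of all genes were higher and 61.8% lower. With TMM factors Cd24, Bsg, Sox9 and Ca12 were the higher ones and Pax1, Foxa2 and Cdh2 the lower ones. Sox9 and Ca12 lost their calls with library totals (edgeR adjusted p = 0.0667 and 0.209). Most of the sum was Acan and Bsg. Acan averaged 2290 CPM in lactate and 2393 CPM in control libraries, and Bsg 1206 and 347 CPM. Acan was not called with TMM factors (log2 fold change −0.06) but lower with library totals (−0.92), while Bsg was higher with both (1.80 and 0.93). Col2a1 was low in both groups (0.75 and 0.28 CPM) and not called. Tbxt (brachyury) and Krt19 were at 0 in the lactate libraries, with only 12 and 9 counts over the control libraries. Summed levels of 6 macrophage and monocyte markers were 4.19 to 5.40 CPM in lactate and 9.65 to 10.7 CPM in control libraries. Cd14 made up most of this sum, at 2.84 CPM in lactate and 9.37 CPM in control libraries, and was called lower. Cd68 was called higher (1.48 and 0.529 CPM) with TMM factors, but not with library totals (log2 fold change 0.64, edgeR adjusted p = 0.195). Csf1r, under the filter, averaged 0.487 CPM in lactate and 0.161 CPM in control libraries, and Adgre1 and Tyrobp were at 0 in lactate libraries, with 4 and 2 counts in control libraries. Summed annulus and fibroblast markers (9 genes) were 107314 to 155919 CPM in lactate and 32712 to 38103 CPM in control libraries, almost all of it Col1a1 (means of 124372 and 31785 CPM). Beside the shares of all genes given above, 5 of the 9 were higher, Mkx and Pdgfra were lower, and Scx and Lum were not called. With library totals 4 were higher, 3 lower and 2 not called. The part of these other cell types in the results below was not tested, and in bulk RNA fewer cells of a type and less RNA per cell cannot be told apart.

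All 8 enzyme genes passed the filter on low counts. Relative to the bulk of genes, lactate libraries held more Ptgs1, less Ptgs2 and very little Hpgd, and these 3 calls were kept in each of the 17 alternative settings. Calls were made with edgeR's quasi-likelihood test at a threshold of 0.05 on the p-value, adjusted over all genes tested. Of the 8 genes, 2 were higher, 3 lower and 3 not called. Over all genes tested 66.0% were called, 31.4% higher and 34.6% lower, so a share of 5 in 8 is near the background. The median log2 fold change of the 8 was −0.21 (−0.10 over all genes tested). With library totals 1 was higher and 5 lower, where 74.3% of all genes were called (12.5% higher and 61.8% lower), with a median of −1.06. With the trend of fold change on transcript length removed 1 was higher and 2 lower, where 64.0% of all genes were called (33.5% higher and 30.5% lower), with a median of −0.07 and 0.00 over all genes. The CPM of the groups did not overlap for 5 of the 8, 2 with lactate above and 3 with lactate below, where 72.2% of all genes tested did not overlap (33.7% above and 38.4% below).

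**Figure D1:**
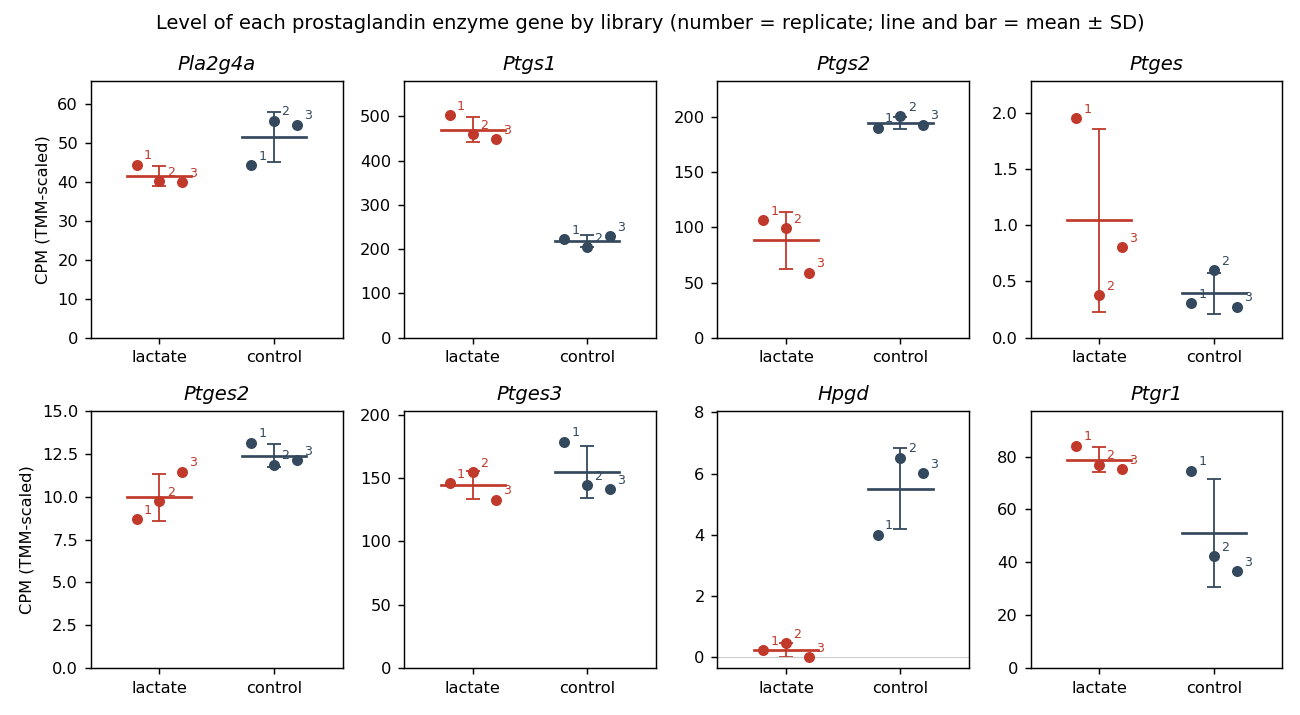
Level of each of the 8 genes in CPM scaled by TMM factors, with the lactate libraries on the left and the control libraries on the right of each panel. Points are libraries numbered by replicate, and lines with bars are means ± SD. The groups lie farthest apart for Ptgs1, Ptgs2 and Hpgd, and overlap for Pla2g4a, Ptges and Ptges3.

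The pathway starts with Pla2g4a, the cytosolic phospholipase A2 that frees arachidonic acid. Its level was 44.4, 40.1 and 39.9 CPM in lactate libraries 1, 2 and 3, and 44.2, 55.7 and 54.7 CPM in control libraries 1, 2 and 3. The groups overlapped, since control library 1 lay at the level of lactate library 1. The log2 fold change was −0.31 ± 0.12 (SE; edgeR adjusted p = 0.0487). This call was weak: with any library but control 1 left out the adjusted p was 0.0719 to 0.171. It was −1.17 and called with library totals, and −0.07 and not called (adjusted p = 0.620) once the length trend was removed.

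The cyclooxygenases, which commit arachidonic acid to prostanoids, moved in opposite directions. Ptgs1 encodes the form that most tissues make at a steady level, and Ptgs2 the form that cells induce on inflammatory, growth factor or mechanical signals. The windows before their starts are shown with that of Hpgd, since these are the 3 genes whose calls held throughout. They are the RefSeq sequences of the rat assembly GRCr8, 250 bases that end at the base before the annotated start, and capitals mark motif matches. Of the 8 genes, 6 matched a promoter window, and Ptges2 and Ptgr1 did not.
Ptgs1, chr3:39981169-39981418, plus strand: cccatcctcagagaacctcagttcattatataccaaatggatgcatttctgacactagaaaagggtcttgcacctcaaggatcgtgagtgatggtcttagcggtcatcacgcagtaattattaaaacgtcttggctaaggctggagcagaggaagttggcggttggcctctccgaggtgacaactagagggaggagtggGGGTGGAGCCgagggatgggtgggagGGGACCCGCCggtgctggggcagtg
Ptgs2, chr13:64713813-64714062, plus strand: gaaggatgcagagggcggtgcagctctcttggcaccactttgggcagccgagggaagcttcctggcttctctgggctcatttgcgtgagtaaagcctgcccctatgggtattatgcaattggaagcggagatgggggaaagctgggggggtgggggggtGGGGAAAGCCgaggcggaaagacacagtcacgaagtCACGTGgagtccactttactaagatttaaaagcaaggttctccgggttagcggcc
Hpgd, chr16:39034832-39035081, minus strand: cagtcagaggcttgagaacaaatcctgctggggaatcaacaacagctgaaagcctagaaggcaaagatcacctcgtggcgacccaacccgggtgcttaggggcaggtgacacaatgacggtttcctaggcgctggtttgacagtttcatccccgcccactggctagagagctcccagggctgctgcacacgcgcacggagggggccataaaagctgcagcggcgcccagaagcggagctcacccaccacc

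Exact matches were searched on both strands for 7 motifs. An NF-kB pattern, GGG and CC with any 5 bases between them, was found 2 times in the Ptgs1 window, 1 time in the Ptgs2 window and not in that of Hpgd, and 42.3% of 33469 rat promoter windows of this length hold it. An E-box, CACGTG, lies 55 to 50 bases before the Ptgs2 start, and 5.59% of windows hold one. None of the 3 windows held the CRE TGACGTCA (1.59% of windows), the AP-1 motif TGANTCA (6.34%), the C/EBP-ATF motif TGATGNAA (3.4%), the Egr1 motif GCGTGGGCG (0.478%) or the TATA box TATAAA (12.9%). No capitals from different motifs overlap, and a match is a run of letters, not a measured site. GC content was 54.4% for Ptgs1, 57.2% for Ptgs2 and 60.0% for Hpgd.

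Ptgs1 stood at 503, 459 and 448 CPM in lactate libraries 1, 2 and 3, and at 222, 204 and 229 CPM in control libraries 1, 2 and 3. Every lactate library lay above every control library, and the spread within each group was small. Its mean was 2.15 times that of control, and its log2 fold change was 1.10 ± 0.09 (SE, with an adjusted p of 1.5e-05 in edgeR). In raw counts the groups overlapped, with 11083, 9765 and 12828 in lactate libraries and 10159, 10530 and 10816 in control libraries. With library totals the fold change was accordingly only 0.24 ± 0.09 (edgeR adjusted p = 0.0419), still a rise. With the length trend removed it was 1.34.

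Ptgs2 stood at 107, 99.6 and 59.0 CPM in lactate libraries 1, 2 and 3, and at 191, 201 and 193 CPM in control libraries 1, 2 and 3. All lactate libraries lay below all control libraries, and lactate library 3 was the lowest. Ptgs2 fell to 45.4% of the control mean, and its log2 fold change was −1.14 ± 0.20 (SE, with an adjusted p of 0.00101 in edgeR). Raw counts were 2355, 2117 and 1688 in lactate libraries and 8713, 10364 and 9113 in control libraries, so the groups were apart before any scaling. The change was −2.02 with library totals, −0.89 without lactate library 3, and −0.72 (edgeR adjusted p = 0.0179) with the length trend removed. That trend bears on Ptgs2 because it is in length decile 9 of 10, where the median log2 fold change of all genes was −0.41.

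**Figure D2:**
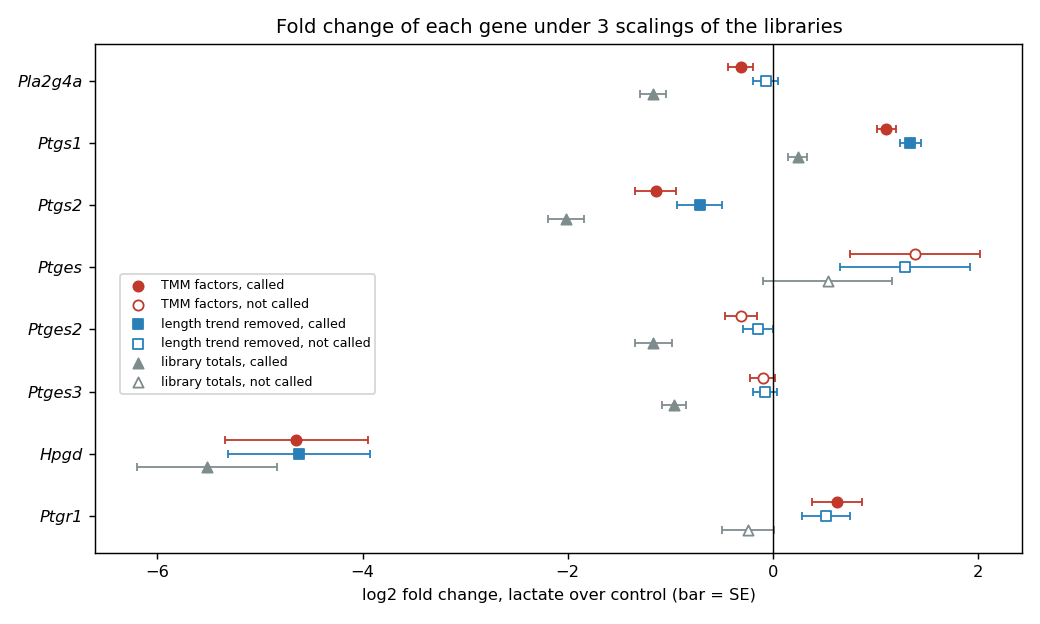
Log2 fold change of lactate over control for the 8 genes, with SE bars, under TMM factors (circles), with the length trend removed (squares) and with library totals (triangles). Filled symbols are called at an adjusted p under 0.05. Ptgs1, Ptgs2 and Hpgd are filled under all 3, while Ptgr1 lies at 0.62 with TMM factors and at −0.24 with library totals.

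The ratio of a pair of genes within a library does not depend on how libraries are scaled. The length trend was not removed from any ratio given here, and Ptgs2 is in length decile 9, Ptgs1 in 7 and Ptges in 3. The log2 ratio of Ptgs2 to Ptgs1 counts was −2.23, −2.21 and −2.93 in lactate libraries 1, 2 and 3, and −0.22, −0.02 and −0.25 in control libraries 1, 2 and 3. The groups did not overlap, and their means of −2.46 ± 0.41 and −0.16 ± 0.12 (SD, n = 3 each) differed by −2.29 (two-sided exact permutation p = 0.1, the smallest that 3 against 3 libraries can give). Per length, in deposited FPKM, Ptgs2 was 11.99, 12.2 and 7.78% of the cyclooxygenase total in lactate libraries, against 35.5, 38.7 and 35.1% in control libraries. Ptgs1 was therefore the larger part in every library, and more so after lactate.

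The direction in which the summed cyclooxygenase level differed depended on the scale. The scales compared differ both in the use of TMM factors and in scaling by length. Ptgs1 and Ptgs2 together came to 135 ± 7.71 FPKM in lactate and 161 ± 6.79 FPKM in control libraries, but to 559 ± 51.1 CPM in lactate and 413 ± 8.96 CPM in control libraries with TMM factors (SD, n = 3 each). The sum was lower on the first scale and higher on the second, in each case with no overlap between groups.

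The name of prostaglandin E2 synthase is carried by 3 genes. Ptges encodes the inducible membrane enzyme that is usually coupled to Ptgs2, Ptges2 another membrane-associated enzyme, and Ptges3 a cytosolic protein better known as p23, a cochaperone of Hsp90. None of them was called with TMM factors.

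Ptges was close to the detection limit, with 43, 8 and 23 counts in lactate libraries 1, 2 and 3 and 14, 31 and 13 counts in control libraries 1, 2 and 3. The groups overlapped, with lactate library 1 the highest of the 6 and lactate library 2 the lowest in counts. The log2 fold change was 1.39 ± 0.64 (SE; edgeR adjusted p = 0.0833), and Ptges was called at an adjusted p of 0.0262 in 1 of the 16 alternatives that gave it a value, without lactate library 2 (1.79). Without lactate library 1 it was 0.60 (adjusted p = 0.423), and over all libraries left out in turn 0.60 to 1.82. At this depth a change of Ptges was not established in either direction.

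Ptges2 stood at 8.71, 9.74 and 11.5 CPM in lactate libraries 1, 2 and 3, and at 13.2, 11.9 and 12.2 CPM in control libraries 1, 2 and 3. Lactate libraries were all lower, but the gap was narrow and the fold change of −0.31 ± 0.15 (SE) was not called (edgeR adjusted p = 0.102). It was called lower without lactate library 3 (−0.40), with upper-quartile factors (−0.47) and with library totals (−1.16). Limma-trend on FPKM plus 1 and on FPKM plus 0.1 also called it lower (−0.99 and −1.17).

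Ptges3 stood at 146, 154 and 133 CPM in lactate libraries 1, 2 and 3, and at 179, 144 and 141 CPM in control libraries 1, 2 and 3. The groups overlapped, and the fold change was −0.10 ± 0.12 (SE; edgeR adjusted p = 0.484). With library totals it was −0.97 and called lower, about the shift of all genes on that scale. Reads of the related gene Ptges3l1, which has its own row, could be split with those of Ptges3. Ptges3 made up 94.1, 95.1 and 93.1% of the FPKM of the 3 genes in lactate libraries and 94.4, 93.6 and 93.6% in control libraries.

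The ratio of Ptges to Ptges2 overlapped between groups, with a mean log2 ratio of −3.52 ± 1.26 in lactate and −5.02 ± 0.64 in control libraries (SD, n = 3 each; two-sided exact permutation p = 0.2). The ratio of Ptgs2 to Ptges, the usual partners of induced prostaglandin E2 synthesis, was lower in all lactate libraries. It averaged 6.63 ± 1.17 in lactate and 8.997 ± 0.56 in control libraries on the log2 scale, a difference of −2.37 (SD, n = 3 each; two-sided exact permutation p = 0.1). Ptges had few counts in both groups and its own change was not established. Lactate library 2 (7.96) lay close to control library 2 (8.36).

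The breakdown gene Hpgd showed the largest change of the 8 genes. Hpgd encodes the dehydrogenase that carries out the first, inactivating step of prostaglandin breakdown. It had 5, 10 and 0 counts in lactate libraries 1, 2 and 3, and 183, 336 and 283 counts in control libraries 1, 2 and 3. Lactate libraries 1, 2 and 3 thus held 0.227, 0.470 and 0 CPM, where 0 counts allow up to 0.105 CPM (3 counts in that library, for counting error only), and control libraries held 4.00, 6.51 and 6.00 CPM. Every lactate library was far below every control library.

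The mean of Hpgd in lactate libraries was 4.22% of that in control libraries. Its log2 fold change was −4.65 ± 0.69 (SE; edgeR adjusted p = 0.000402). With 15 counts in the whole lactate group the size is loosely set: it was −3.95 without lactate library 3 and −5.71 without lactate library 2. Library totals gave −5.51, and removal of the length trend −4.62.

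Ptgr1 encodes prostaglandin reductase, which reduces the product of the Hpgd step and also inactivates leukotriene B4. It stood at 84.1, 77.0 and 75.1 CPM in lactate libraries 1, 2 and 3, and at 74.6, 42.3 and 36.5 CPM in control libraries 1, 2 and 3. The groups just missed overlapping, as control library 1 reached almost to lactate library 3. The log2 fold change was 0.62 ± 0.24 (SE; edgeR adjusted p = 0.0476). The call was lost with any library but control 1 left out (adjusted p = 0.0632 to 0.148) and was clearest without control library 1 (1.00, adjusted p = 0.00051). It was also lost with the length trend removed (0.52, adjusted p = 0.0802), and with library totals the value turned to −0.24 and was not called. The direction of Ptgr1 is therefore not settled by these data.

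Ptges, the prostaglandin E2 synthase gene of lowest FPKM, and the breakdown gene Hpgd were compared as the ratio of Ptges to Hpgd counts. It was 2.98, −0.30 and 5.55 on the log2 scale in lactate libraries 1, 2 and 3, and −3.66, −3.42 and −4.39 in control libraries 1, 2 and 3. The groups did not overlap (difference 6.57, two-sided exact permutation p = 0.1), but Ptges had few counts in both groups and Hpgd few in lactate libraries. Of these genes only Hpgd was called (−4.65), while a change of Ptges was not established. With 0.5 added to each count, as here, the difference was 5.16 to 8.09 with 1 library left out, and with 5 added it was 5.03.

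**Figure D3:**
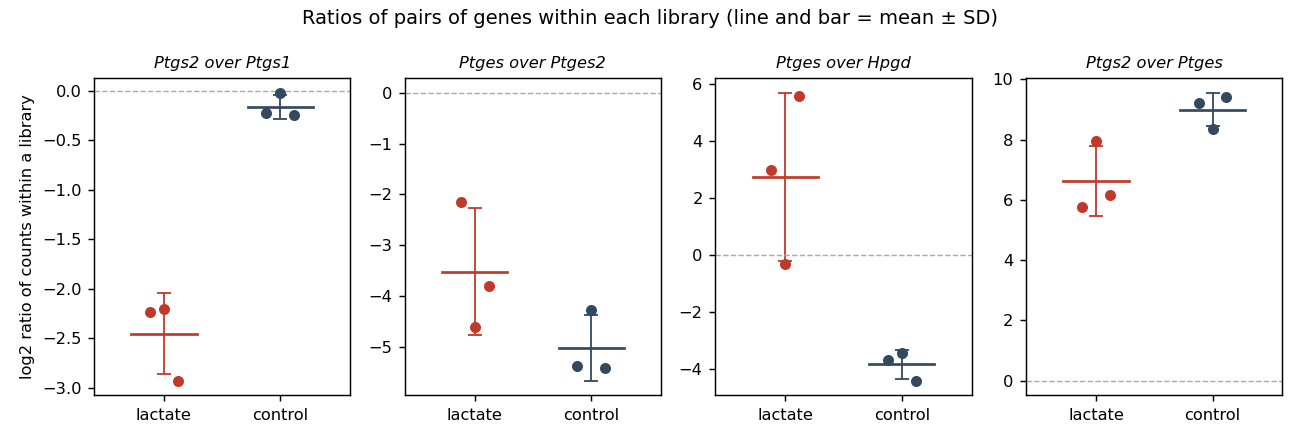
Log2 ratios of counts between pairs of genes within each library, free of the scaling between libraries, with lactate on the left and control on the right of each panel. Points are libraries, lines with bars are means ± SD, and each panel has its own axis. Lactate and control libraries do not overlap except for Ptges over Ptges2.

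Per transcript length, the order of the genes differed between the groups. In deposited FPKM, lactate libraries had Ptgs1 highest at a mean of 120, then Ptges3 at 62.3, Ptgr1 at 45.8, Ptgs2 at 14.3, Pla2g4a at 10.5, Ptges2 at 3.32, Ptges at 0.588 and Hpgd at 0.0884. Control libraries had Ptges3 highest at 122, then Ptgs1 at 102, Ptgs2 at 58.4, Ptgr1 at 54.5, Pla2g4a at 23.9, Ptges2 at 7.51, Hpgd at 4.28 and Ptges at 0.403. Neighbours whose libraries overlapped were Ptgs2 and Pla2g4a in the lactate group, and Ptgs2 and Ptgr1 in the control group. FPKM follows library totals, so a level set between groups on this scale carries the shift described above, while an order within a library does not.

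**Figure D4:**
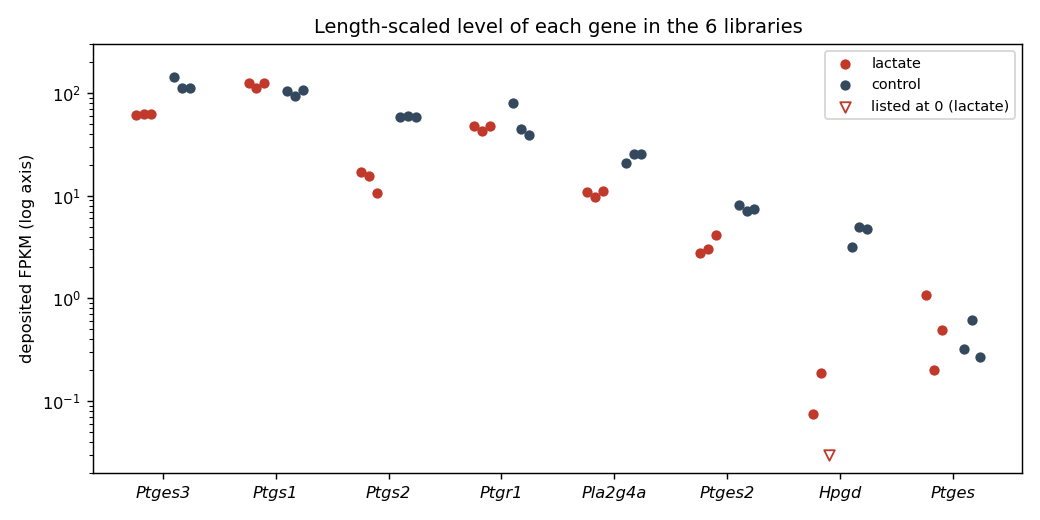
Deposited FPKM of the 8 genes in each library on a log axis, with lactate libraries left of control libraries for each gene and genes in the order of their control means. The open triangle, drawn near the bottom of the axis, marks Hpgd listed at 0 in 1 lactate library. Ptgs2 lies next to Pla2g4a in lactate libraries and next to Ptgr1 in control libraries.

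The authors' deposited table of selected genes holds 3 of the 8, Ptgs1 as up and Ptgs2 and Hpgd as down, where it holds 36.8% of all genes (15.5% up and 21.3% down). In the authors' deposited table of all genes the log2 fold changes were 1.07 for Ptgs1, −1.18 for Ptgs2 and −4.66 for Hpgd. The authors' deposited table gives Ptgr1 0.59 with an adjusted p of 0.0278, without its being selected.

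Genes around these enzymes are described by list, with counts called and the median log2 fold change, beside the −0.10 of all genes tested. Of all genes tested 31.4% were higher and 34.6% lower with TMM factors, and 12.5% and 61.8% with library totals. Other genes of arachidonic acid release and its control were split, 2 of 12 higher, 3 lower and 7 not called (median −0.04). Anxa1, the glucocorticoid-induced inhibitor of phospholipase A2, fell by 1.03 ± 0.08 (SE). Daglb, a diacylglycerol lipase, and Abhd6, a monoacylglycerol lipase, fell by 1.24 and 1.14, and the lysosomal phospholipase Pla2g15 rose by 0.81 (edgeR adjusted p = 1.3e-05, 0.000368, 0.00129 and 0.0046 in that order). With library totals 0 were higher and 6 lower, and Pla2g15, at −0.05, lost its call.

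Among 3 other prostanoid synthases tested, Akr1b1, an aldose reductase that also makes prostaglandin F2 alpha, was higher by 1.21 ± 0.17 (SE; edgeR adjusted p = 0.000266). It was 0.37 and not called with library totals (adjusted p = 0.141). The other synthases, Cbr1 and Prxl2b, were not called, and the thromboxane synthase Tbxas1 had 0 lactate and 4 control counts and was not tested. Of 4 other breakdown genes, Zadh2, a prostaglandin reductase, fell by 2.04 ± 0.21 and Ptgr2, another, by 0.44 ± 0.14, while Hsd17b10, a mitochondrial dehydrogenase, rose by 0.88 ± 0.11 (SE; edgeR adjusted p = 4.1e-05, 0.0196 and 0.000155 in that order). Ptgr2 was not called with the length trend removed (adjusted p = 0.0788), nor without lactate library 1 or control library 1 or 2 (0.0569 to 0.0646). Library totals left Hsd17b10 at 0.02, without a call.

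All 3 prostaglandin carriers tested were called lower with TMM factors, where 34.6% of all genes were, and none with the length trend removed, where 30.5% were. Abcc4, an exporter, fell by 0.72 ± 0.14, Slco2a1, the prostaglandin uptake carrier, by 0.98 ± 0.36 and Slco3a1 by 0.52 ± 0.15 (SE; edgeR adjusted p = 0.00212, 0.0406 and 0.0148 in that order). Without the length trend the adjusted p were 0.0989, 0.198 and 0.0898. The call of Slco2a1, whose groups overlapped, was also lost with any library but lactate 2 left out (adjusted p = 0.0536 to 0.141). That of Slco3a1 was lost without lactate library 1 (0.0570) or control library 3 (0.0653).

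Of 6 prostanoid receptors tested, 3 were lower and 0 higher, where 34.6% of all genes were lower. Their median was −1.16, with values of −1.34 to −1.05 over the 6 receptors. Ptgfr, the receptor of prostaglandin F2 alpha, had 25.4, 23.7 and 30.2 CPM in lactate libraries and 53.9, 57.1 and 53.0 CPM in control libraries (−1.05 ± 0.12, SE; edgeR adjusted p = 8.5e-05). Ptger1, a receptor of prostaglandin E2 that signals through calcium, had 4.17, 3.90 and 3.70 CPM in lactate libraries and 10.1, 10.9 and 8.74 CPM in control libraries (−1.34 ± 0.17, SE; edgeR adjusted p = 0.000173). Ptger2, one that raises cyclic AMP, had 2.00, 2.16 and 1.85 CPM in lactate libraries and 4.07, 4.88 and 4.75 CPM in control libraries (−1.19 ± 0.22, SE; edgeR adjusted p = 0.00128). For these 3 receptors the groups did not overlap, and the calls held under library totals as well as without the length trend.

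The other prostaglandin E2 receptor of that kind, Ptger4, had 7, 9 and 7 counts in lactate and 25, 27 and 51 in control libraries (−1.13 ± 0.51, edgeR adjusted p = 0.0764). The prostacyclin receptor Ptgir (−1.27, adjusted p = 0.256) and the thromboxane receptor Tbxa2r (−1.07, adjusted p = 0.0646) were not called by edgeR either, and with 0, 13 and 2 counts in lactate libraries Ptgir rests on single libraries. It was −0.68 without lactate library 1, −0.77 without lactate library 3, and −3.67 and called without lactate library 2 (adjusted p = 0.0095). With 1 library left out Ptger4 was −1.35 to −0.71, and Tbxa2r −1.28 to −0.91. With library totals 5 of the 6 were called lower, where 61.8% of all genes were. Ptger3 had 0 counts in lactate and 6 in control libraries, and Ptgdr2 had 6 and 9, both under the filter.

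The lipoxygenase branch, which also starts from arachidonic acid, had 3 genes higher and 0 lower of 6 tested (median 0.60, and 0 higher and 1 lower with library totals). Alox12, a lipoxygenase, rose by 1.04 ± 0.21, and the microsomal glutathione transferases Mgst2 and Mgst3 by 0.86 ± 0.24 and 0.65 ± 0.23 (SE; edgeR adjusted p = 0.00194, 0.012 and 0.0361 in that order). All 3 lost their call with library totals (0.18, −0.01 and −0.22 in that order). Without the length trend both transferases lost it as well (−0.18 and −0.08), while Alox12 kept it (1.29). Mgst3 also lost it without lactate library 1 or 2 or control library 2 or 3 (adjusted p = 0.0792 to 0.136). Alox5 and Alox5ap, of leukotriene synthesis, were under the filter. Of 8 genes listed for the return of fatty acids to membranes, 2 were higher, 1 lower and 5 not called (median 0.06). With library totals 0 were higher and 8 lower (median −0.80). Mboat1, an acyltransferase, fell by 1.65 ± 0.17, and the acyl-CoA synthetases Acsl3 and Acsl5 rose by 0.52 ± 0.12 and 0.36 ± 0.12 (SE; edgeR adjusted p = 4.3e-05, 0.00408 and 0.0263 in that order). With library totals the synthetases turned round and were called lower, at −0.34 and −0.51. Acsl5 lost its call without lactate library 1 or 2 or control library 2 or 3 (adjusted p = 0.0643 to 0.0954).

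Known regulators of Ptgs2 and Ptges transcription moved both ways, 7 of 16 higher, 5 lower and 4 not called (median 0.23). With library totals 4 were higher, 9 lower and 3 not called (median −0.63). Nfkbia, the inhibitor of NF-kB, stood at 174, 166 and 113 CPM in lactate libraries and at 5.97, 6.80 and 7.49 CPM in control libraries, a rise of 4.48 ± 0.20 (SE; edgeR adjusted p = 1.5e-06). Nfkb1, an NF-kB subunit, fell by 1.73 ± 0.13, while Atf3 rose by 5.70 ± 0.25 and Jun, of AP-1, by 2.23 ± 0.18 (SE; edgeR adjusted p = 1.0e-05, 1.4e-06 and 1.3e-05 in that order). Tnf had 9 lactate and 0 control counts and was not tested.

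Factors that act on the decay of Ptgs2 mRNA and similar messages were higher in 6 of 10, lower in 2 and not called in 2 (median 0.99). With library totals 3 were higher and 4 lower (median 0.13). Zfp36 (tristetraprolin), which promotes decay, rose by 2.27 ± 0.15, and Elavl1 (HuR), which stabilises, by 1.77 ± 0.11, so members of opposite known action rose together (SE; edgeR adjusted p = 5.2e-06 and 3.9e-06 in that order). Tial1 rose by 1.24 ± 0.10 and Rbm3 by 0.92 ± 0.08 (SE; edgeR adjusted p = 1.2e-05 and 2.4e-05 in that order), and library totals left Rbm3 at 0.05, without a call.

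Hsp90 and its cochaperones, the other setting of Ptges3, were higher in 6 of 15, lower in 2 and not called in 7 (median 0.25). With library totals 2 were higher and 12 lower (median −0.61). Hsp90ab1 and Hsp90aa1, which encode the cytosolic Hsp90 chaperones, were higher by 1.96 and 1.54, also with library totals (1.09 and 0.68), where Ptges3 was not higher on either scale. Cdc37, the kinase-specific cochaperone, was called higher with TMM factors (0.63) but lower with library totals (−0.23), and Fkbp5 fell by 2.06 ± 0.20 (SE; edgeR adjusted p = 3.6e-05).

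**Figure D5:**
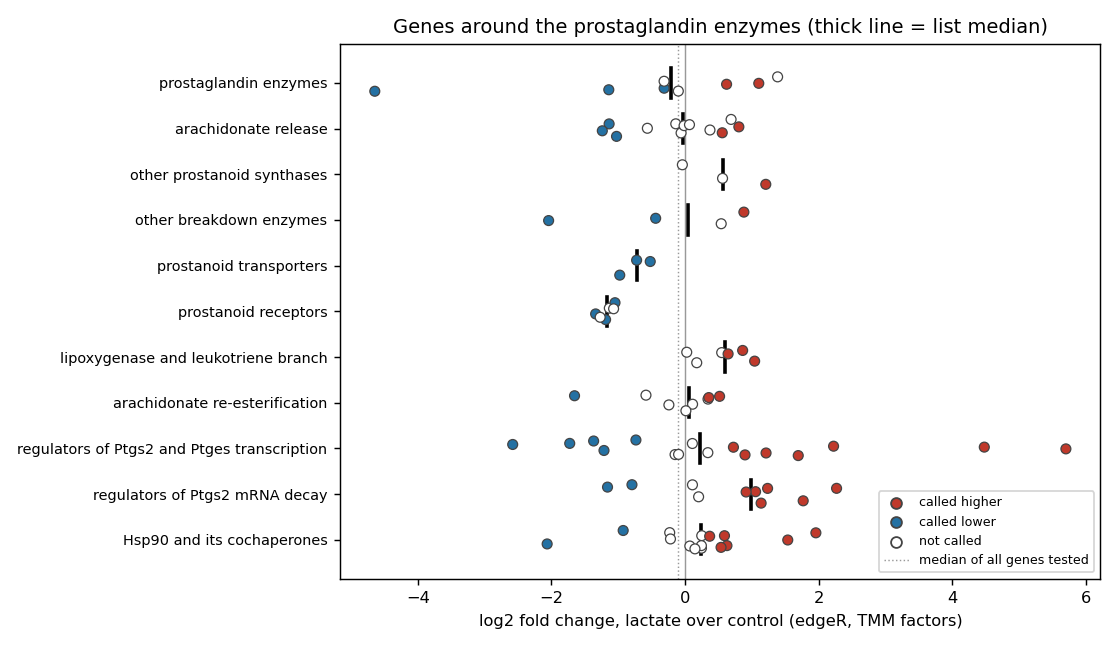
Log2 fold change of lactate over control with TMM factors, 1 point for each gene tested, for the 8 enzyme genes and the lists around them. Red points are called higher, blue points called lower and open points not called, thick lines are list medians, and the dotted line is the median of all genes tested, −0.10. The 6 prostanoid receptors lie between −1.34 and −1.05, 3 of them not called, and the regulators of Ptgs2 and Ptges transcription range most widely.

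Genes most like Ptgs1 and Hpgd, the enzyme genes with the largest called rise and fall, were found by the root-mean-square difference of centred log2 CPM over the 6 libraries. Nearest to Ptgs1 were Ppia, Hspd1, Cotl1, Acot7 and Vegfb, at 0.028 to 0.036 log2 units. Nearest to Hpgd were Cmklr1, Kcnj8, Lacc1 and Rtl3, at 0.31 to 0.55, with 1 gene model without a symbol among them. The likeness mostly reflects an equal difference between the groups and is given as a description.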

How the data were processed

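Raw counts per gene and FPKM were deposited by the authors for 6 libraries, per the file headers, with their own log2 fold changes and p-values. Aligner, counter, annotation and strandedness were not given in the sources used here, and the submitters' processing notes list GRCm38 and mm10, both mouse builds, while gene names are those of rat, so no coordinates were taken from the files. Without known strand use, overlapping and antisense genes are uncertain. Depth is given with the libraries.

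Counts were tested with edgeR 4.0.16 (quasi-likelihood) (R 4.3.3) after TMM scaling and filterByExpr, with no term but group, and Benjamini-Hochberg adjustment over all genes tested. The SE is the fold change divided by the square root of F. Within-library ratios used counts plus 0.5 and an exact permutation test. Alternatives were RLE, upper-quartile and no factors, 2 other filters, DESeq2 1.42.0, limma 3.58.1 (voom, and trend on log2 FPKM plus 1 or 0.1), a replicate block, removal of a lowess trend (span 0.3) on relative length from counts over FPKM, and leaving out each library. The edgeR fit was tested on simulated counts with few genes changed, evenly up and down. That test cannot bear on the shift of scale seen here, which it did not include.

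The enzyme genes, lists and alternatives were chosen with earlier results of these data known. All enzyme genes and tested receptors are named, with up to 4 called genes of smallest p from each other list, and the genes most like those with the largest called rise and fall. FPKM shares and sums, some marker genes, Cbr1, Prxl2b and genes under the filter were added after values were seen.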

Additional observations from a re-analysis of the deposited data

How the results depend on the processing

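Ptgs1, Ptgs2 and Hpgd kept their call and direction in all 17 alternatives, with leave-one-out ranges of 1.06 to 1.17, −1.28 to −0.89 and −5.71 to −3.95. Over all genes, library totals called 1722 higher and 8492 lower, limma-trend on FPKM plus 1 called 1781 and 8759, and on FPKM plus 0.1 called 1770 and 8737, against 4319 and 4760 with TMM factors. Leaving out 1 library gave 3922 to 4489 higher and 4091 to 4918 lower. Among the enzyme genes, 5 were lower and 1 higher in those 3 settings, and 1 was higher with upper-quartile factors, with no filter and with the length trend removed. Leaving out 1 library gave 1 to 2 higher and 2 to 3 lower. The cause was not tested.

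Ptgr1 turned to −0.24 with library totals, and to −0.18 in both limma-trend settings. Ptges3, never called with a library left out, ranged from −0.17 to 0.013, the highest without control replicate 1. In the order library totals, FPKM plus 1, FPKM plus 0.1, Pla2g15 turned to −0.047, −0.048 and −0.055, Mgst3 to −0.22, −0.18 and −0.20, Acsl3 to −0.34, −0.32 and −0.35, Acsl5 to −0.51, −0.51 and −0.52, and Cdc37 to −0.23, −0.23 and −0.23. Mgst2 turned to −0.0052 with library totals, and without the length trend it was −0.18 and Mgst3 −0.083.

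The replicate numbers are shared by the groups, but same-numbered libraries did not deviate together (correlations 0.0078, 0.0381 and 0.084), so they were not taken as pairs. With the replicate block 4190 genes were higher and 4624 lower, and 2 enzyme genes each way, Pla2g4a losing its call (adjusted p = 0.0867). For the ratios the block leaves the differences as they are by arithmetic, so it tests nothing about their size. The ratios kept their direction in all alternatives. With 1 library left out Ptgs2 over Ptgs1 was −2.42 to −2.06, Ptges over Ptges2 0.82 to 2.05, Ptges over Hpgd 5.16 to 8.09 and Ptgs2 over Ptges −3.03 to −1.93. Ptgis over Ptges was not run. Depth limits Ptges and Hpgd, with 74 and 15 counts over the lactate group.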
